A study of Mus musculus with 14 samples.

Results

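The cytoplasmic ribosomal protein genes of MC3T3-E1 cells were taken by name. A gene was a member if its symbol began with Rpl or Rps followed by a digit, or was Rplp0, Rplp1, Rplp2 or Rpsa, and if its annotated type was protein coding. Symbols with -ps, which mark pseudogenes, and the ribosomal S6 kinases (Rps6k) were left out. This gave 86 members of 24346 genes in the count table, 51 named for the large subunit (Rpl) and 35 for the small subunit (Rps). The name rule also admits Rps19bp1, which encodes a protein that binds Rps19 and is not part of the ribosome, and Rps27rt, a retrogene of Rps27. It leaves out Fau and Gnb2l1 (also called Rack1), among others, which encode ribosomal proteins under other names and are described with the related genes.

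MC3T3-E1 is an established line of mouse osteoblast precursor cells. Polyadenylated RNA was sequenced in 14 libraries that the labels call control or MACF1 knockdown, at days 0, 3, 5 and 10. Days 0, 3 and 5 had 2 libraries in each condition, described in the design text as biological replicates, and day 10 had 1 library in each. The sources used here do not name the knockdown agent or clone, the culture medium or the event from which the days were counted. The question of the study, as its title gives it, was the part of MACF1, a protein that links microtubules and actin, in osteoblast differentiation.

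Libraries held 8044687 to 23301514 counted reads. The library control day 3 replicate 2 stood apart: it had the lowest total, and it differed from replicate 1 with a chi-square per degree of freedom of 187, against 13.5 to 41.1 in the other 5 pairs. It was left out of the main fit and is described separately, so that the control of day 3 rests on 1 library. Macf1 itself was at 155.6 to 208.4 CPM (counts relative to a library size scaled by TMM, the trimmed mean of M values) in the other 6 control libraries and at 130.4 to 183.3 CPM in the 7 labelled knockdown. Its average difference over days 0, 3 and 5 was -0.08 on the log2 scale (SE 0.058, adjusted p = 0.274, edgeR), so a fall of Macf1 was not called and "knockdown" below means the libraries labelled so. Of the osteoblast markers, Col1a1 was at 2591 to 7333 CPM and Runx2 at 47.8 to 184.1 CPM over the 13 libraries. Runx2 was lower in knockdown at each day. It was at 85.8 and 79.4 CPM in control day 0 and at 57.2 and 47.8 CPM in knockdown day 0. Col1a1 was lower in knockdown at day 0, at 2591 and 2751 CPM against 4175 and 4921 CPM in control. At day 3 it was higher, at 5296 and 5345 CPM against 4525 CPM in control replicate 1. It was also lower at day 5 and higher at day 10. The 7 osteoblast markers summed to 12517 to 27608 CPM in these control and 12013 to 21040 CPM in the knockdown libraries, but not every one was alike between conditions. Ibsp, which encodes bone sialoprotein, was at 8546 and 7412 CPM in control day 5 and at 402 and 354 CPM in knockdown day 5. At day 0 Ibsp was at 14.8 and 10.0 CPM in control and at 1.48 and 2.74 CPM in knockdown. Alpl, which encodes alkaline phosphatase, was at 159.0 and 152.6 CPM in control day 5 and at 45.9 and 41.6 CPM in knockdown day 5. At day 0 Alpl was at 2.87 and 2.60 CPM in control and at 0.22 and 0.21 CPM in knockdown. Spp1 was higher in knockdown at day 0, at 4258 and 3849 CPM against 2002 and 1770 CPM in control. At day 3 it was at 2278 and 2040 CPM against 986 CPM in control replicate 1. At day 5 it was lower, at 2281 and 2153 CPM against 4004 and 3472 CPM in control. The part of these differences in the ribosomal protein results was not tested. Over the 13 libraries, the macrophage and blood markers Ptprc, Cd68, Adgre1 and Csf1r summed to at most 1.02 CPM. They summed to 1.19 CPM in control day 3 replicate 2. The muscle markers Myog and Ckm summed to at most 0.213 CPM, and the adipocyte markers Adipoq and Fabp4 to at most 0.362 CPM. The endothelial markers Pecam1 and Cdh5 summed to at most 0.569 CPM in these control libraries and 0.255 to 2.34 CPM in the knockdown libraries, the highest being Pecam1 at 2.28 CPM in knockdown day 10. Adipoq, Cdh5 and Ckm were each at 0 in 13 of 14 libraries. The chondrocyte marker Col2a1 was at 56.3 to 268.2 CPM over the 13 libraries, while Acan, the other one, was at most 0.14 CPM. At day 0 Col2a1 was at 76.2 and 80.3 CPM in control and at 156.2 and 158.5 CPM in knockdown. At day 5 it was at 252.1 and 268.2 CPM in control and at 161.7 and 178.6 CPM in knockdown.

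Each cytoplasmic ribosome contains a small subunit, which reads the messenger RNA, and a large subunit, which joins the amino acids. Most ribosomal proteins are present in a single copy per ribosome, and cells make the proteins of both subunits in matched amounts. Their messenger RNAs typically begin with a C followed by an uninterrupted run of pyrimidines, the 5′ terminal oligopyrimidine (TOP) tract, through which growth signals acting on mTORC1 control their translation. Osteoblasts secrete large amounts of collagen, and ribosomal protein messenger RNAs are among the most abundant in growing cells.

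The start sites of the members that the results turn on are shown first, because the TOP tract is the sequence feature that ribosomal protein messenger RNAs are known for. Of the 86 members, 65 matched an entry in the RefSeq promoter table (build GRCm38.p6). Where a gene had several entries, an entry with the run marked below was taken if there was any. In each line below, 30 bases are given 5′ to 3′ on the gene's own strand, 15 before and 15 from the annotated start, and capitals mark a run of a C followed by at least 5 C or T.
Rpl7a, chr2:26910792-26910821, plus strand: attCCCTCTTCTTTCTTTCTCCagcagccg
Rpl22l1, chr3:28805493-28805522, plus strand: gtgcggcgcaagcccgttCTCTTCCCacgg
Rpl6, chr5:121204486-121204515, plus strand: tggtcaCCTCCCgtcattgcttatagaccg
Rpl4, chr9:64173372-64173401, plus strand: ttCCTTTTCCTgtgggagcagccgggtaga
Rps18, chr17:33955651-33955680, minus strand: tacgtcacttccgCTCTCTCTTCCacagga
Rps26, chr10:128626492-128626521, minus strand: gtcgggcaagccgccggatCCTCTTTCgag
Rps27, chr3:90213634-90213663, minus strand: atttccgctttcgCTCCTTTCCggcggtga
Rpl5, chr5:107900513-107900542, plus strand: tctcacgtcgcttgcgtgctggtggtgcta
Rps25, chr9:44407699-44407728, plus strand: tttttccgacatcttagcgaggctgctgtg
Rpl41, chr10:128549154-128549183, minus strand: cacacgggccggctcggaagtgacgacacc
Rps19bp1, chr15:80264292-80264321, minus strand: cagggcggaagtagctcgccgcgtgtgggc
Rpl7a, Rpl22l1, Rpl6, Rpl4 and Rps18 were lower in the knockdown libraries and carry the run in this window. Rps26 and Rps27 carry it too and were not called different in the fit without a block, while Rpl5 and Rps25 were lower and have no such run here. Over all members in the table, 36 held the run on the sense strand (55.4%), against 25.5% of 27025 genes. A gene was counted if any of its entries held the run, so genes with more entries had more chances. On the other strand the shares were 9.23% of members and 28.6% of genes. The search used the letters of both strands around annotated starts, and it does not show where transcription began in these cells. Between the conditions, the median log2 difference was -0.46 in the 35 tested members with the run and -0.42 in the 27 without it.

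Ribosomal protein genes were among the most abundant transcripts of these cells. On the RPKM values deposited by the authors, which relate reads to gene length and library depth, 46 members were in the 100 genes with the highest mean over 13 libraries and 80 were in the highest 1000. In all, 82 members passed the filter of at least 10 counts in at least 2 libraries. Their median mean level was 879.5 RPKM, with 36 above 1000 RPKM and 6 below 100 RPKM. The 4 members left out as low were Rpl3l, Rpl10l, Rpl39l and Rps4l, paralogs of Rpl3, Rpl10, Rpl39 and Rps4x, with 0 to 5 counts in any library. Rpl3l is known from striated muscle and Rpl10l and Rpl39l from testis. The profile over members was stable between libraries: the correlation of log2(RPKM + 1) across members was 0.961 to 0.999 between any pair of the 13 libraries, a description across genes and not across replicates.

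The members with the highest mean levels per length were Rpl26, Rpl41, Rps12, Rpl19, Rps26, Rpl4, Rps23 and Rps18. Rpl26, a large subunit protein next to the exit of the peptide tunnel, was at 4053 and 2952 RPKM in control day 0, 3415 in control day 3 replicate 1, 3557 and 2711 in control day 5, 2825 and 2149 in knockdown day 0, 2217 and 1733 in knockdown day 3, and 2541 and 1973 in knockdown day 5. Its level per length was lower in the knockdown than in the control library of the same day and replicate number in all 5 such pairs. Rpl41, a very short and basic large subunit peptide, was at 2434 and 3348 RPKM in control day 0 and at 2015 and 3079 RPKM in knockdown day 0. For Rpl41 the replicates of days 0 and 5 differed by more than the conditions. At the lower end stood Rpl7l1 at 51.2 to 78.5 RPKM, Rpl36al at 59.3 to 79.1 RPKM and Rps19bp1 at 20.4 to 53.1 RPKM. Many members have near-identical processed pseudogenes, and the sources used here do not name the counting method, so reads shared with such copies or between paralogs make the level of any member uncertain. Rows annotated as pseudogenes with a symbol beginning with Rpl or Rps took at most 0.0201% of counts in any library. The 18 rows annotated as protein coding with -ps in the symbol are not part of this figure.

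The members together took a smaller share of counted reads in every knockdown library than in any control library. In control libraries of day 0 the share was 9.68% and 8.72%, in day 3 replicate 1 it was 8.53%, in day 5 it was 8.88% and 8.17%, and in day 10 it was 11.3%. In knockdown libraries of day 0 it was 7.25% and 6.80%, in day 3 it was 5.81% and 5.68%, in day 5 it was 6.12% and 5.95%, and in day 10 it was 7.91%. The conditions did not overlap at any day. The knockdown share was 0.681 to 0.780 times the control share within the same day and replicate number, control day 3 replicate 2 aside. Counting error was small beside this, with an exact 95% interval of 9.67% to 9.69% for control day 0 replicate 1, and such an interval covers counting error only, since the reads carry no molecular identifiers. As polyadenylated RNA of whole cultures was sequenced, fewer cells with high ribosomal protein levels and less of these RNAs per cell cannot be told apart. The share is relative to all counted reads, so more of other RNAs cannot be told apart from these either.

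**Figure D1:**
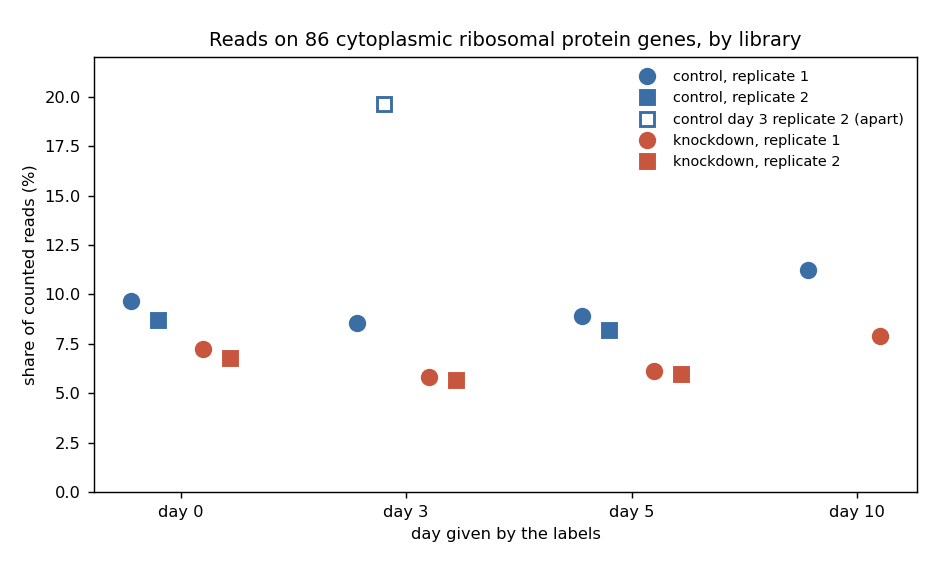
Share of counted reads (%) on the 86 ribosomal protein genes, 1 symbol per library, by day; blue is control, red is knockdown, circles are replicate 1 and squares replicate 2. Every knockdown symbol lies below the control symbols of its day, and the open square, control day 3 replicate 2, lies at 19.6%.

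Both subunits contributed to the lower share, the large subunit more. The ratio of large to small subunit reads was 1.98 to 2.04 in the 6 control libraries without control day 3 replicate 2 and 1.87 to 1.91 in the 7 knockdown libraries. The ranges of these libraries did not overlap, but the ratio in control day 3 replicate 2 was 1.88, inside the knockdown range. The share of mitochondrially encoded reads moved in the other direction, from 2.37% to 3.09% in those 6 control libraries to 3.46% to 5.00% in the knockdown libraries. With mitochondrially encoded reads taken out of the total, the member share was 8.40% to 11.5% in these control libraries and 5.92% to 8.30% in the knockdown libraries. Its lowest control value, in day 5 replicate 2, then lay above the highest knockdown value, at day 10. The part of the mitochondrially encoded reads in the single-gene results was not tested.

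Averaged over days 0, 3 and 5, most ribosomal protein genes fell in the knockdown libraries. Of 82 members tested, 66 were lower and 1 was higher at an adjusted p under 0.05 (edgeR quasi-likelihood test on 13 libraries, Benjamini-Hochberg over 13088 genes), which is 80.5% lower. Over all genes tested, 22.2% were lower and 24.9% higher. The median log2 difference was -0.46 for members, a level lower by 27.4%, and 0.01 for all genes. The SD of the log2 differences was 0.277 over members and 0.901 over all genes. Most members were high in level, and genes of like level were not compared. Of the large subunit genes, 41 of 48 fell (median -0.50). Of the genes named for the small subunit, 25 of 34 fell (median -0.44) and 1 rose, Rps19bp1. Without the paralogs, Rps27rt and Rps19bp1, 64 of 76 fell and 75 of 76 had a log2 difference below 0. The residual spread rests on 5 degrees of freedom between samples, and a p-value measures only the spread between these samples, which may be technical.

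The median difference depended on control day 3 replicate 2 and the direction did not. With this library in the fit, 55 members were lower and none was higher by edgeR, with a median of -0.80. Background calls were then 11.9% lower and 15% higher. With the replicate number as a block and this library out, 77 members were lower and 2 higher (Rps19bp1 and Rpl30). Over all genes, 29.5% were lower and 31.9% higher in this fit. The block takes up a further degree of freedom, so fewer than 5 are left. The very small p-values of the blocked fit lean on spread pooled over genes, and not on these few samples alone. Members stayed lower under each scaling tried, at medians of -0.41 (total counts) to -0.47 (TMM computed without the members).

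**Figure D2:**
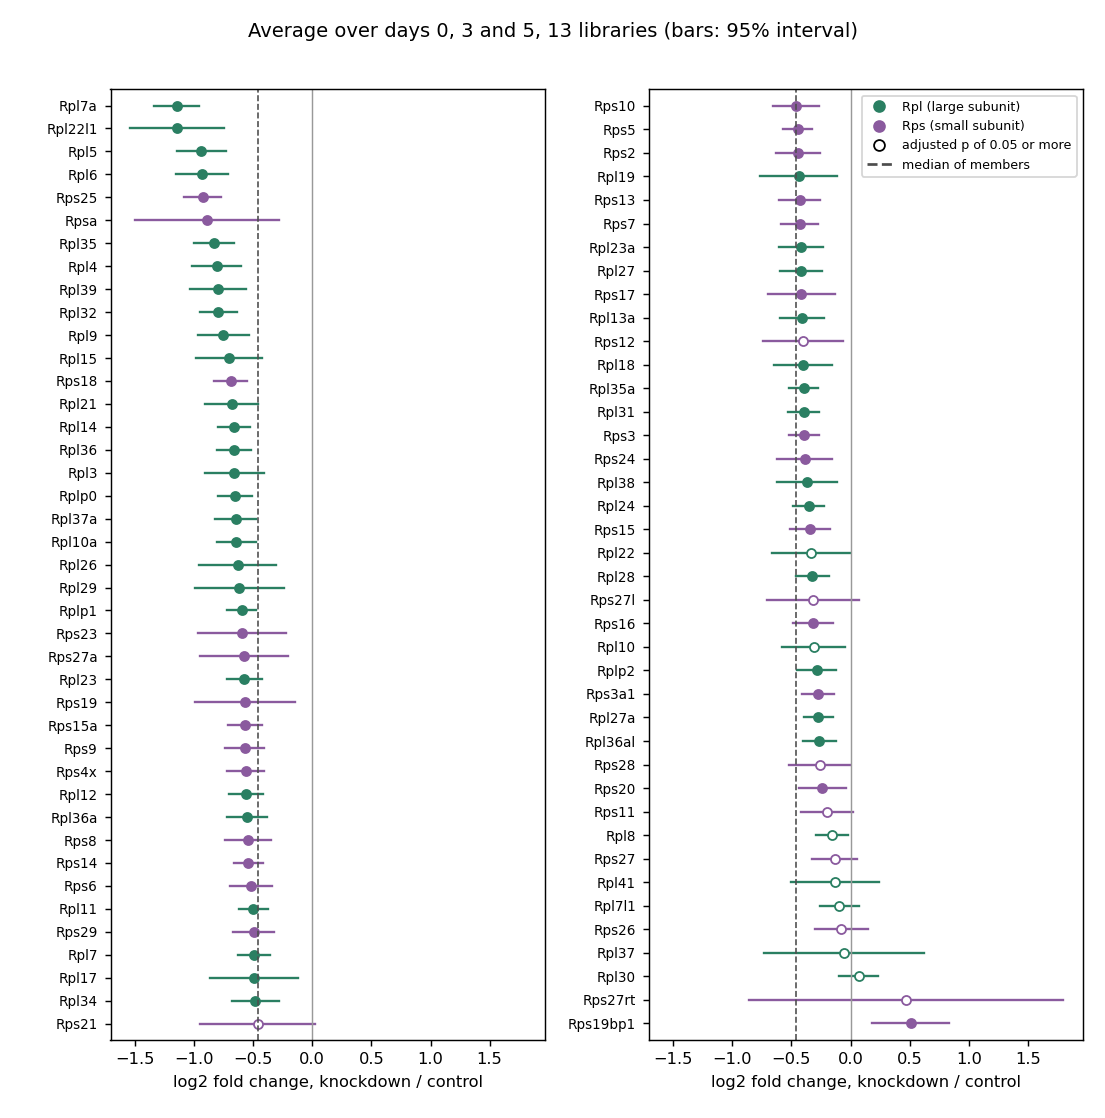
Log2 fold change, knockdown over control, averaged over days 0, 3 and 5, for each of 81 members with its 95% interval (edgeR, 13 libraries); green is Rpl, purple is Rps, and open symbols have an adjusted p of 0.05 or more. Most members lie left of 0 around the median of -0.46, from Rpl7a at -1.15 to Rps19bp1 at 0.51.

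The largest falls were in Rpl7a, Rpl22l1, Rpl5, Rpl6 and Rps25. Rpl7a encodes a large subunit protein and its gene also hosts small nucleolar RNAs in its introns. It was at 1365 and 1205 CPM in control day 0, 1250 in control day 3 replicate 1, 1308 and 1117 in control day 5, 659 and 549 in knockdown day 0, 583 and 497 in knockdown day 3, and 603 and 500.4 in knockdown day 5. Every control library was above every knockdown library. Its average log2 difference was -1.15 (SE 0.087, adjusted p = 1.05e-06, edgeR), 0.452 times the control level.

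Rpl22l1, a paralog of Rpl22, was at 100.5 and 67.2 CPM in control day 0, 124.6 in control day 3 replicate 1, 129.8 and 89.2 in control day 5, 49.7 and 29.3 in knockdown day 0, 51.3 and 47.2 in knockdown day 3, and 60.9 and 47.4 in knockdown day 5. The groups did not overlap, but replicate 2 was lower than replicate 1 in each of these groups with 2 libraries listed. The average log2 difference was -1.14 (SE 0.174, adjusted p = 6.14e-04, edgeR). Rpl22 itself had an average log2 difference of -0.33 (95% interval -0.66 to -0.01, adjusted p = 0.0862), which was not called, while the replicate block gave -0.27 (adjusted p = 2.23e-11). Whether the paralogs differed from each other was not tested.

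Rpl5 and Rpl11 bind 5S ribosomal RNA together, and free of the ribosome this complex inhibits Mdm2, the ligase that marks p53 for degradation. Rpl5 was at 4120 and 3522 CPM in control day 0, 3873 in control day 3 replicate 1, 4272 and 3478 in control day 5, 2418 and 2108 in knockdown day 0, 1964 and 1616 in knockdown day 3, and 2191 and 1831 in knockdown day 5. All knockdown libraries lay below all control libraries, and the average log2 difference was -0.94 (SE 0.094, adjusted p = 9.69e-06, edgeR). Rpl11 was at 406.2 to 482.9 CPM in the 5 control libraries of days 0, 3 and 5 and at 276.0 to 346.1 CPM in the 6 knockdown libraries, also without overlap. Its average log2 difference was -0.50 (SE 0.057, adjusted p = 2.72e-05).

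Rpl6, of the large subunit, fell by 0.93 (log2; SE 0.100, adjusted p = 1.6e-05, edgeR). Rps25, a small subunit protein that is dispensable for growth in yeast and aids translation from some internal ribosome entry sites, was at 442.7 and 384.0 CPM in control day 0, 446.3 in control day 3 replicate 1, 476.9 and 435.2 in control day 5, 276.7 and 246.3 in knockdown day 0, 231.1 and 207.6 in knockdown day 3, and 226.5 and 199.5 in knockdown day 5. The groups did not overlap, and its average log2 difference was -0.93 (SE 0.070, adjusted p = 1.01e-06). Rpl4, whose protein lines the tunnel through which the new chain leaves, fell by 0.81 (log2; SE 0.095, adjusted p = 3.24e-05).

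The stalk that recruits the elongation factors is built from Rplp0, Rplp1 and Rplp2. Rplp0 was at 2323 to 2839 CPM in the 5 control libraries and 1416 to 1943 CPM in the 6 knockdown libraries, and fell by 0.65 on the log2 scale (adjusted p = 1.02e-05, edgeR). Rplp1 fell by 0.60 (adjusted p = 6.52e-06) and Rplp2 by 0.29 (adjusted p = 0.00782), the latter not called with control day 3 replicate 2 in the fit (-0.80, adjusted p = 0.0768). Rps6, which S6 kinase phosphorylates, fell by 0.52 (adjusted p = 3.06e-04). Rps19 and Rpl11, along with Rpl5, are mutated in Diamond-Blackfan anaemia in humans, and Rps19 fell by 0.57 (SE 0.187, adjusted p = 0.0325). Rps19 was no longer called when control day 0 replicate 1, control day 5 replicate 1 or knockdown day 5 replicate 2 was left out (adjusted p = 0.0597, 0.0721 and 0.0639). Rps18, often used as a reference gene, fell by 0.69 (adjusted p = 5.95e-06), and Rpl13a, another one, by 0.41 (adjusted p = 0.00192).

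Rpsa, the laminin receptor precursor and a small subunit protein, had a large difference with a large spread. It was at 3138 and 1770 CPM in control day 0, 2523 in control day 3 replicate 1, 2780 and 1585 in control day 5, 2108 and 1139 in knockdown day 0, 1428 and 824 in knockdown day 3, and 1379 and 945 in knockdown day 5. Replicate 2 was below replicate 1 in each of these groups with 2 libraries listed, and knockdown day 0 overlapped the control range. Its average log2 difference was -0.89 (SE 0.266, adjusted p = 0.0233, edgeR). With the replicate number as a block the estimate was -0.77 (SE 0.036, adjusted p = 1.39e-20). It was no longer called when control day 5 replicate 1 was left out (-0.74, adjusted p = 0.0537) and with no filter on low counts (adjusted p = 0.148).

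Some members were near 0. Of the well expressed ones, Rps26 had an average log2 difference of -0.08 (95% interval -0.30 to 0.14), Rps27 one of -0.13 (-0.32 to 0.06) and Rpl41 one of -0.13 (-0.50 to 0.24), none of them called by edgeR without a block. Rpl7l1, a paralog of Rpl7, had -0.10 (-0.26 to 0.07), while Rpl7 fell by 0.49 on the log2 scale (adjusted p = 5.52e-05). Rpl30 and Rpl37, named after their values were seen, were at 0.07 (-0.09 to 0.23) and -0.06 (-0.73 to 0.62). The intervals of Rpl41 and Rpl37 are wide enough to hold the member median of -0.46, while those of Rps26, Rps27, Rpl7l1 and Rpl30 are not. In all, the interval of 12 members lay wholly above the median of members and that of 17 wholly below it, although the median was computed from the same members. With the replicate block, Rps26 (-0.13, adjusted p = 9.12e-05), Rpl41 (-0.23, adjusted p = 7.16e-08) and Rpl7l1 (-0.13, adjusted p = 0.00119) were called lower and Rpl30 (0.10, adjusted p = 0.0129) higher. Rps27, Rpl37 and Rps27rt were the 3 tested members that the blocked fit did not call, with -0.17 (95% interval -0.37 to 0.03), -0.24 (-0.49 to 0.01) and 0.61 (-0.45 to 1.67).

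Other paralog pairs that passed the filter were as follows. Rpl36a fell by 0.55 (adjusted p = 1.43e-04, edgeR) and Rpl36al by 0.26 (adjusted p = 0.00471) on the log2 scale, the latter not called with control day 3 replicate 2 in the fit (-0.66, adjusted p = 0.0779). Rps27l, a p53 target in other cells, had a log2 difference of -0.32 (95% interval -0.71 to 0.07, adjusted p = 0.163), and -0.24 with the block (adjusted p = 8.83e-05). Rpl3 fell by 0.66 (adjusted p = 6.34e-04), Rpl39 by 0.80 (adjusted p = 1.18e-04) and Rps4x by 0.56 (adjusted p = 6.2e-05), while their paralogs Rpl3l, Rpl39l and Rps4l were too low to test. Rpl10 had -0.31 (-0.58 to -0.05) with an adjusted p of 0.0529, and -0.26 with the block (adjusted p = 6.4e-10).

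Rps19bp1, the member that is not a ribosomal protein, was the only one called higher. It was at 31.4 and 17.9 CPM in control day 0, 29.9 in control day 3 replicate 1, 26.5 and 20.5 in control day 5, 46.8 and 36.1 in knockdown day 0, 36.0 and 32.9 in knockdown day 3, and 35.9 and 34.2 in knockdown day 5. Each of these knockdown libraries was above each of these control libraries. The average log2 difference was 0.51 (SE 0.146, adjusted p = 0.0158, edgeR). With control day 3 replicate 2 in the fit, where it was at 66.5 CPM, the difference was 0.29 and was not called (adjusted p = 0.347).

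**Figure D3:**
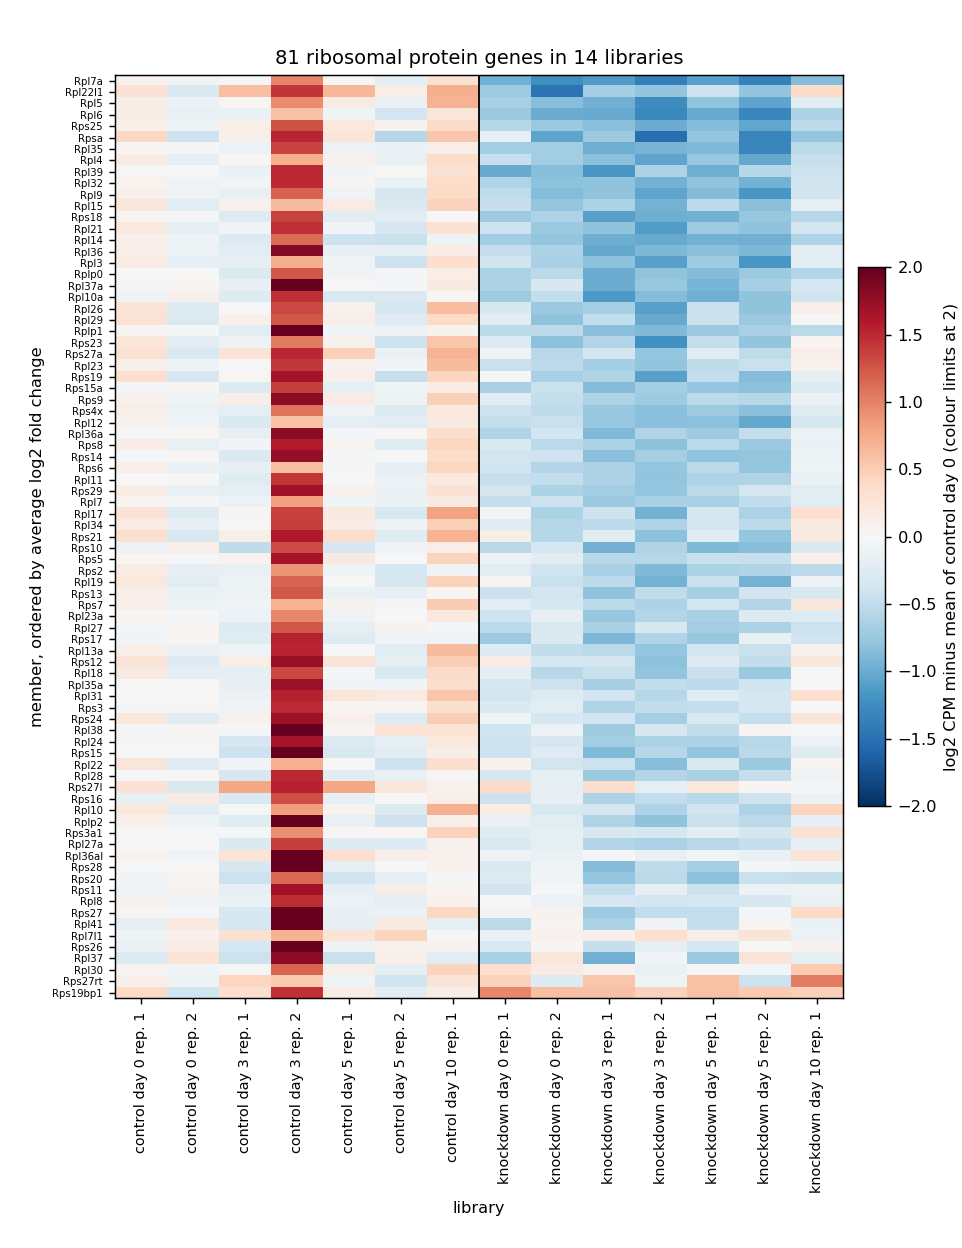
Log2 CPM of 81 members in 14 libraries, minus the mean of the control day 0 libraries, with members ordered by average log2 fold change from Rpl7a (top) to Rps19bp1 (bottom); colour limits are at 2. Knockdown libraries (right of the line) are mostly blue, and control day 3 replicate 2 is red in nearly every row.

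Day by day, the same direction was seen with fewer calls. At day 0, 36 members were lower and 1 higher (median -0.38) in 2 libraries against 2, with 12.9% of all genes lower and 15.8% higher. At day 3, 45 were lower (median -0.58) in 2 knockdown libraries against 1 control library, with 9.18% of genes lower. At day 5, 49 were lower (median -0.50), with 14.9% of genes lower. Rpl7a was lower at each day, by -1.09, -1.21 and -1.14 on the log2 scale (adjusted p = 1.68e-04, 4.84e-04 and 1.28e-04 by edgeR). Rps25 was at -0.66, -1.02 and -1.10 (adjusted p = 0.00113, 3.65e-04 and 3.08e-05). Rps19bp1 was called at day 0 (0.75, adjusted p = 0.0355) and not at day 3 (0.20) or day 5 (0.57, adjusted p = 0.0892) in this fit. With the replicate number as a block, 1 member was called higher at day 5, as were 3253 of 13088 genes. DESeq2 also called 1 member higher at day 5, and 1831 genes. At that day Rps19bp1 alone among members had both knockdown libraries above both control libraries.

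The single-day counts moved with the libraries and the model. With the replicate number as a block, 68, 74 and 74 members were lower at days 0, 3 and 5, with 21.8%, 19.6% and 25.8% of all genes lower. With control day 3 replicate 2 in the fit, edgeR called 61 members lower at day 3 (median -1.57). It called 0 members for day 0 and 0 for day 5, where 5 and 9 had an unadjusted p under 0.05. In that fit 2.68%, 5.52% and 2.47% of genes were lower. Without control day 0 replicate 1, 24 members and 20.4% of all genes were called for day 0 in either direction. Without knockdown day 3 replicate 2, 28 members and 13.6% of genes were called for day 3, and without control day 5 replicate 1, 32 members and 20.3% of genes for day 5.

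In levels without a model, every knockdown library was below every control library of the same day for 60 members in day 0 (30% of all genes), 74 in day 3 (40.4% of all genes, 1 control library) and 70 in day 5 (32.2% of all genes). For 58 members, 70.7% of those tested, this held at all 3 days, against 15.3% of all genes. Rps19bp1 alone was above at all 3 days, against 17.4% of all genes. Within replicate number 1, the median log2 difference of members was -0.40, -0.53 and -0.55 at days 0, 3 and 5, with 78, 79 and 80 of 82 members lower. Within replicate number 2, it was -0.36 at day 0 and -0.42 at day 5, with 78 of 82 lower at each. At day 3 the replicate 2 pair includes control day 3 replicate 2 and gave -2.19.

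At day 10, with 1 library in each condition and no replicate check, 76 of 82 members were lower in the knockdown library, with a median log2 difference of -0.41. Past 1.5-fold, 16 members were lower and 1 higher, while 12% of all genes were lower and 15.7% higher past the same fold. Rpl7a was at 1590 CPM in the control and 701 CPM in the knockdown library, a log2 difference of -1.18. Rps25 had -0.91 and Rps26 -0.01. The member past 1.5-fold higher was the low-count retrogene Rps27rt, at 0.414 and 1.05 CPM.

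Between day 0 and day 5, few members changed within a condition in the fit without a block. In control, Rpl7l1 rose by 0.36 on the log2 scale (adjusted p = 0.0389, edgeR) and Rpl14, a large subunit protein, fell by 0.44 (adjusted p = 0.00707). The rise of Rpl7l1 was not called under any other scaling tried (adjusted p = 0.0527 to 0.0640) or by DESeq2 (0.0572). Over all genes, 17% rose and 14.5% fell, and the member median was -0.09. In knockdown, 3 members fell, among them Rpl12 by 0.46 and Rps14 by 0.41 (adjusted p = 0.0122 and 0.0101), against 7.56% of genes that fell, and the member median was -0.20. Rpl12 was at 1355 and 1379 CPM in knockdown day 0 and at 1060 and 927 CPM in knockdown day 5. The calls of these 3 members were lost without knockdown day 5 replicate 2. Not all of them held without knockdown day 5 replicate 1. With the replicate block, 29 members fell and 6 rose in control (23.1% and 25.8% of genes), and 51 fell and 2 rose in knockdown (18.5% and 18% of genes). With control day 3 replicate 2 in the fit, edgeR called 0 members in either condition, and none had an unadjusted p under 0.05. The control count was 0 without control day 0 replicate 1 and 1 without control day 0 replicate 2, control day 5 replicate 1 or control day 5 replicate 2, and the knockdown count was 0 without either knockdown day 0 library.

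Whether these time courses differed between conditions was tested as an interaction. By edgeR no member was called, and DESeq2 also called 0, while 10.1% of all genes were called by edgeR. An unadjusted p under 0.05 was seen for 3 members, 3.66% of them, and for 22.4% of all genes. With the replicate block, 17 members had a more negative change in knockdown and 1, Rpl14, a less negative one, against 15.1% and 11.9% of genes. Among these, Rps25 had an interaction of -0.44 (SE 0.070, adjusted p = 1.99e-06) with the block and -0.44 (SE 0.160, adjusted p = 0.119) without it. With control day 3 replicate 2 in the fit, edgeR called 0 members and 1.36% of genes, with the block also 0, and no member had an unadjusted p under 0.05 in either of these fits. From day 5 to day 10, with 1 library at day 10, the member median rose in level by 0.37 on the log2 scale in control and 0.48 in knockdown, with 14 and 21 members more than 1.5-fold higher, against 13.8% and 12.8% of genes. The knockdown count moved with the scaling, to 12 members with total counts (11% of genes) and 26 with RLE size factors (13.4% of genes).

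The members varied between replicates in a pattern that recurred across groups. Comparing replicate 2 with replicate 1 in the 5 pairs without control day 3 replicate 2, 40 of 82 members were lower in replicate 2 in all 5 pairs, against 18.5% of all genes, and 17 (20.7%) were higher in all 5, against 15.7% of all genes. Rpsa had log2 differences of -0.83 and -0.81 in control days 0 and 5 and -0.89, -0.79 and -0.54 in knockdown days 0, 3 and 5. Rpl37, a short large subunit protein, had the opposite sign, at 0.54 and 0.54 in control and 0.895, 0.904 and 0.996 in knockdown. Rpl41 was also higher in replicate 2 in each pair, by 0.38 to 0.58. Across the 82 members, the replicate differences of control and knockdown correlated at 0.889 at day 0 and 0.796 at day 5. Over all genes these values were 0.229 and 0.223. Between days, knockdown day 0 and control day 5 correlated at 0.947 over members and 0.267 over all genes. Control day 0 and knockdown day 5 gave 0.659 and 0.198. Genes of like level were not compared with the members. These correlations are across genes, which are not independent, and what the replicate numbers share (culture, extraction or library preparation) is not stated in the labels.

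**Figure D4:**
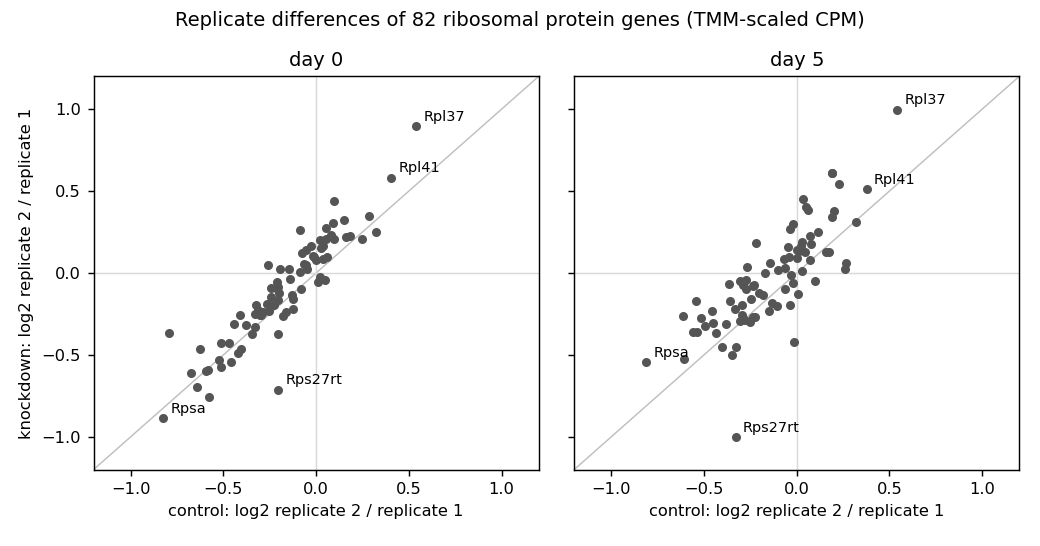
Log2 ratio of replicate 2 to replicate 1 in control (horizontal) against knockdown (vertical) at day 0 and day 5, 1 point for each of 82 members, with the line of equality. Points run along the line, from Rpsa at the lower left to Rpl37 at the upper right.

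In control day 3 replicate 2, which stood apart, members took 19.6% of counted reads. All 82 tested members were higher there than in replicate 1, 66 of them more than 2-fold, against 14.6% of all genes. The median log2 difference was 1.53 for members, or 2.90-fold, and -0.01 for all genes. Rps15 had the largest difference, at 2.47, and Rps27rt the smallest, at 0.10. Over all genes, the difference between these libraries had a Spearman correlation of -0.489 with the gene length implied by the deposited tables, against -0.057 to 0.167 in the other 5 pairs, so that shorter genes tended to be higher in this library. Over the 82 members it was -0.339. The median implied length was 940 bases for members and 3264 for all genes tested, and the part of length in the level of members in this library was not tested. In the comparison of conditions, the log2 difference had a Spearman correlation with implied length of -0.12 over 82 members and 0.05 over 11698 genes.

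Genes that act with the ribosomal proteins were compared in the same fit, averaged over days 0, 3 and 5. Among ribosomal proteins outside the name rule, Gnb2l1 fell by 0.69 on the log2 scale (adjusted p = 9.09e-05, edgeR) and Fau by 0.51 (adjusted p = 0.0268). Fau was no longer called when control day 5 replicate 1 or knockdown day 5 replicate 2 was left out (adjusted p = 0.0563 and 0.0622). Of 20 genes known for TOP transcripts, 9 fell and 0 rose, with a median of -0.21. They are translation factors and other genes, such as Npm1, Hnrnpa1, Tpt1, Naca, Btf3 and the noncoding Gas5. With the replicate block 14 fell and 3 rose, and with control day 3 replicate 2 in the fit 7 fell and 0 rose (median -0.35). Eef1g and Eef1b2, parts of the complex that reloads elongation factor 1A, fell by 0.68 (adjusted p = 7.37e-06) and 0.59 (adjusted p = 7.79e-04). Of 35 translation factors outside the TOP list, 12 fell and 9 rose (median -0.04). With the block 15 fell and 11 rose, and with control day 3 replicate 2 in the fit 9 and 1. Among them, Eif3m, a subunit of initiation factor 3, fell by 0.68 (adjusted p = 5.21e-06), and Eif2b2, a subunit of the exchange factor of initiation factor 2, rose by 0.54 (adjusted p = 7.81e-04).

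Of 84 ribosome biogenesis genes, 36 fell and 6 rose (median -0.16), with the block 44 and 15, and with control day 3 replicate 2 in the fit 21 and 1. Ppan and Imp3, which act in the processing of ribosomal RNA, fell by 0.85 (adjusted p = 1.49e-05) and 0.84 (adjusted p = 3.01e-05), and Rrp1 rose by 0.40 (adjusted p = 0.00343) by edgeR, which was not called with control day 3 replicate 2 in the fit (0.29, adjusted p = 0.147). Of 17 genes of RNA polymerase I, 9 fell and 1 rose (median -0.21), with the block 10 and 2, and with control day 3 replicate 2 in the fit 6 and 0. Polr1b, its second largest subunit, fell by 0.78 (adjusted p = 1.3e-05), and Cd3eap, another subunit, rose by 0.24 (adjusted p = 0.0328) but was at -0.07 with control day 3 replicate 2 in the fit. Of 76 mitochondrial ribosomal protein genes, which serve the separate ribosome of that organelle, 20 fell and 8 rose (median -0.12), with the block 34 and 11, and with control day 3 replicate 2 in the fit 13 and 1 (median -0.34). Mrpl32 fell by 0.59 (adjusted p = 3.75e-04) and Mrps6 rose by 0.51 (adjusted p = 3.73e-04). The lists were chosen with earlier results of these data known, their counts without a block stand beside the 22.2% lower and 24.9% higher over all genes, the blocked counts beside 29.5% and 31.9%, and those with control day 3 replicate 2 beside 11.9% and 15%. A difference between lists was not tested.

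**Figure D5:**
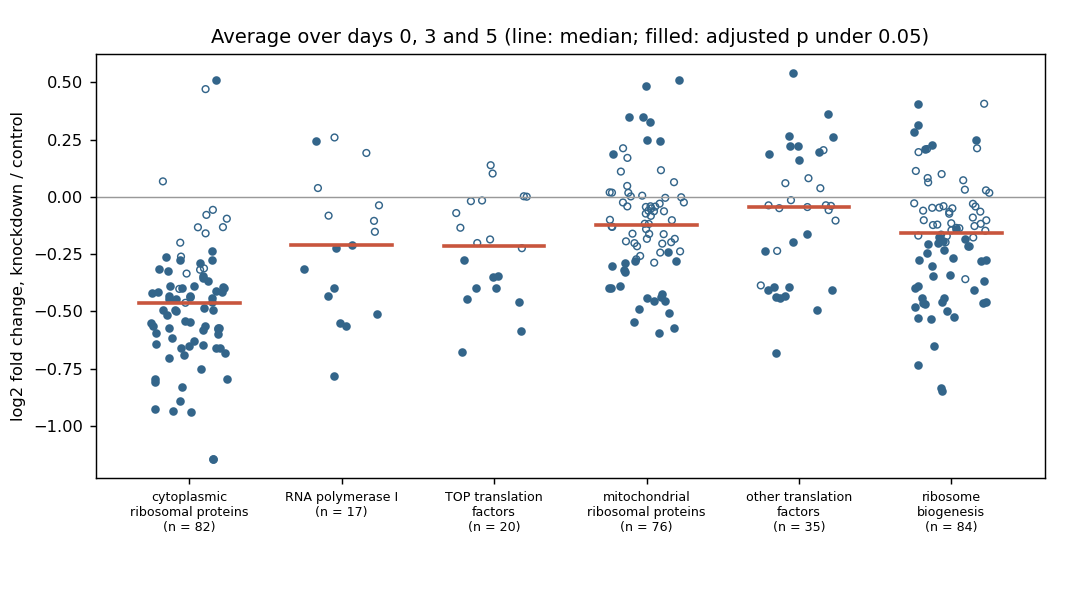
Average log2 fold change, knockdown over control, of each tested gene in the ribosomal protein group and in 5 related lists, with the median as a line and filled points at an adjusted p under 0.05 (edgeR). Medians are -0.46 for the ribosomal proteins and -0.04 to -0.21 for the related lists. The list drawn as TOP translation factors also holds other genes known for TOP transcripts.

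Ribosome biogenesis genes also changed with time. From day 0 to day 5 in control, 30 of 84 biogenesis genes rose and 3 fell (median 0.22), while 1 ribosomal protein gene rose and 1 fell. In knockdown, 10 of the biogenesis genes rose and 3 fell (median 0.11). With the block, 46 rose and 7 fell in control and 32 rose and 10 fell in knockdown. With control day 3 replicate 2 in the fit, 7 rose in control and edgeR called 0 in knockdown. Over all genes, 17% rose in control and 8.01% in knockdown, with the block 25.8% and 18%, and with that library 4.32% and 1.45%. Whether the lists differed from the members in these changes was not tested.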

How the data were processed

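Polyadenylated RNA of MC3T3-E1 cells was sequenced in 14 libraries (strand-specific kit, per the labels' protocols). The submitters' processing notes name the tools bcl2fastq, TopHat2 and edgeR and the build GRCm38. No source used here names versions, the counter, whether it used strand, or the annotation. The files the authors deposited hold raw counts for 24346 genes and RPKM values for 24340 genes. Tests used the counts. RPKM gave levels per length and, as log2(RPKM + 1), a limma alternative. Gene lengths were those implied by the ratio of both tables.

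The filter asked for 10 or more counts in 2 or more libraries, which kept 13088 genes and left out 11258. The fit (edgeR 4.0.16 under R 4.3.3, TMM scaling, quasi-likelihood F test with robust dispersion) had 13 libraries, 8 group means and 5 residual degrees of freedom. Adjustment was by Benjamini-Hochberg across the genes kept, and a call needed an adjusted p under 0.05. CPM are TMM-scaled, and differences between single libraries add 0.5 CPM. The edgeR test without a block was checked on simulated data. These had independent libraries and no day or replicate effects, so the check does not cover the blocked fit or effects shared between libraries. Alternatives were DESeq2 1.42.0, limma 3.58.1, other scalings, no filter, a replicate block, control day 3 replicate 2 included and each library left out. The sum of raw counts per library gave depth, and no molecular identifiers were used.

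Replicate numbers recur in the labels. Deviations of same-numbered libraries from their group means correlated over all genes at 0.229, 0.130 and 0.223 at days 0, 3 and 5, so the numbers were taken to pair the libraries, and blocked values stand beside results whose call they change or whose count they move by over 1.5 times. The day 3 value used control day 3 replicate 2. The members and lists were chosen with earlier results of these data known. Named genes were the 8 members with the highest mean RPKM, the largest called rises and falls (5 each for the average, 3 each for time, at a mean of at least 5 CPM), listed paralogs and reference genes, up to 2 called genes per direction of each related list, and Macf1. Results of 2 genes are not reported here by name. Start-site sequences are from RefSeq (GRCm38.p6).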

Additional observations from a re-analysis of the deposited data

Results flagged for a closer look

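The share of reads on ribosomal protein genes in control day 3 replicate 2 was 19.6%, above the share in each of the other 13 libraries. This library was outside the main fit, and its share is given here because it is a signal in data that the main comparisons do not use.

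The level of Rps3, a small subunit protein, moved in opposite directions with time in the libraries of the conditions. In the main fit neither of these changes was called. The change of Rps3 from day 0 to day 5 in knockdown minus that in control was -0.1926 on the log2 scale. It was at 659 and 676 CPM in control day 0, 683.2 and 682.9 in control day 5, 544 and 577 in knockdown day 0, and 478 and 526 in knockdown day 5. As a test of the difference, the interaction was not called in the main fit (SE 0.132, adjusted p = 0.451, edgeR) and was called with the replicate block (-0.19, SE 0.066, adjusted p = 0.0216). With control day 3 replicate 2 in the fit it was not called, with the block (adjusted p = 0.996) or without it. Both control libraries of day 5 were above both of day 0, and both knockdown libraries of day 5 were below both of day 0.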

How the results depend on the processing

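The count of members called in the average over days was 67, and stayed within 1.5 times under every alternative that gave a value (63 to 70 with 1 library left out). Leaving out control day 3 replicate 1 gives no value for the average or day 3, since no control library of day 3 is then left. At day 0 (37 called) the count was 0 with control day 3 replicate 2, 70 with the replicate block, 0 with both, and 24 to 46 with 1 library left out. At day 3 (45) it was 29 with limma on log2(RPKM + 1), 74 with the block, and 28 to 46 with 1 library left out. At day 5 (49) it was 0 with control day 3 replicate 2, 75 with the block, 0 with both, and 32 to 50 with 1 library left out. For control time (2) it was 0 with that library, 1 with total counts, 8 with no filter, 35 with the block, 0 with both, and 0 to 3 with 1 library left out. For knockdown time (3) it was 0, 5, 15, 53, 0 and 0 to 3 in the same order, 7 with DESeq2 and 5 with limma. The interaction (0) rose to 18 with the block and was 0 with that library, with both, and with each library left out. The block together with control day 3 replicate 2 was chosen after seeing the data. Of 1088 alternative values of named genes, 994 kept direction and side of the threshold, 65 lost and 27 gained a call, and 2 reversed, both Cd3eap (-0.071 with control day 3 replicate 2 and -0.064 with the block as well). Except where given, the cause was not tested. At 2 libraries a group, the spread between libraries and not counting depth limits the members, apart from Rps27rt and the 4 too low to test.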
